A study of Rattus norvegicus with 52 samples.

Results

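Basal and luminal mammary epithelial cells of 4-week-old wild-type rats were compared in 6 RNA-seq libraries, 1 basal and 1 luminal library from each of the 3 rats labelled WTRU, WTLUD and WTLUU, out of the 52 samples of a study of rats lacking *Cdkn1b*, the gene of the cell cycle inhibitor p27. The libraries were chosen by their labels, with earlier results of these data known: strain ACI, genotype *Cdkn1b*+/+, age 4 weeks, and cells sorted from dissociated glands as basal/myoepithelial (*Cd24*+ Cd29HIGH) or luminal (*Cd24*+ Cd29LOW). The rats were females and wild-type offspring of heterozygous crosses, whose mutations had been made in Sprague-Dawley zygotes and carried onto ACI by backcrossing. The labels do not give the backcross generation of each rat. The titles carry the number 3.4 for WTRU and 4 for WTLUD and WTLUU, which the labels do not explain. The study's text describes its younger group as 3 to 4 weeks old, and whether WTRU was younger than the other rats is not stated. Another 2 groups with the same populations were used for comparison. These were 2 wild-type ACI rats labelled 6 weeks (WTRM and WTLU) and 2 *Cdkn1b*-/- ACI rats labelled 4 weeks (KORD and KORM). The luminal library of another *Cdkn1b*-/- ACI rat labelled 4 weeks (KORUU) entered only the fit of all 11 libraries of 4 weeks. This rat and a wild-type rat labelled 6 weeks with a basal library only were left out of the comparisons between ages and genotypes.

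The ducts of the mammary gland are built of 2 epithelial layers. Luminal cells line the lumen, carry tight junctions, and contain both the cells that sense estrogen, progesterone and prolactin and the cells that later make milk, whereas basal cells sit on the basement membrane and are mostly myoepithelial cells, which contract in response to oxytocin and eject milk. Before puberty the gland is a small ductal tree, and the layers exchange signals through Notch, Wnt, ErbB, FGF and TGF-beta family ligands.

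The 6 libraries held 16604944 to 23045345 reads counted on genes. Rows that name no gene made up 49.7% to 59.4% of the total of each count column. The row for alignments to several places made up 37.8% to 40.4% in basal and 43.1% to 48.4% in luminal libraries, so the groups did not overlap in this share. These are shares of column totals and may differ from shares of reads. Values below are normalized read counts per 1000000 reads (CPM, scaled by edgeR's TMM method), and 3 values of a population are always in the order WTRU, WTLUD, WTLUU. The first principal component of the log2 CPM of all genes tested took 78.7% of the variance and separated the populations, and the second took 10.0% and set both libraries of WTRU (46.3 and 53.7) apart from the other 4 (-30.4 to -20.7). *Cdkn1b* was present in every library, at 44.8, 17.4 and 24.9 CPM in basal and 19.8, 16.3 and 14.4 CPM in luminal libraries, and did not pass the test (log2 fold change 0.69, 95% confidence interval 0.03 to 1.35, adjusted p = 0.0997, 0.44 without WTRU). The sort genes checked the labels and are not results, with *Itgb1*, which encodes Cd29, at 1097, 2138 and 2447 CPM in basal and 582, 849 and 863 CPM in luminal libraries and *Cd24* at 334, 208 and 295 CPM in basal and 870.0, 1011 and 834 CPM in luminal libraries. In bulk RNA, fewer cells of a type and less RNA per cell cannot be told apart.

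The test was edgeR's quasi-likelihood fit with the rat as a block, and Benjamini-Hochberg adjusted p-values were below the threshold of 0.05 for 3921 of 11395 genes (34.4%). Of these, 2134 (18.7% of all genes tested) were higher in basal and 1787 (15.7%) higher in luminal cells, and 3189 of the genes called differed by more than 2-fold. The shares of 18.7% and 15.7% are the background for every count of list members below. The genes called are spread over the whole range of levels in the plot of fold change against mean level. Without the block 3370 genes passed, 1940 higher in basal and 1430 in luminal cells. Positive log2 fold changes below are higher in basal cells and negative ones higher in luminal cells, ± is the standard error of a fold change, and "called" means past that threshold over all 11395 genes.

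**Figure D1:**
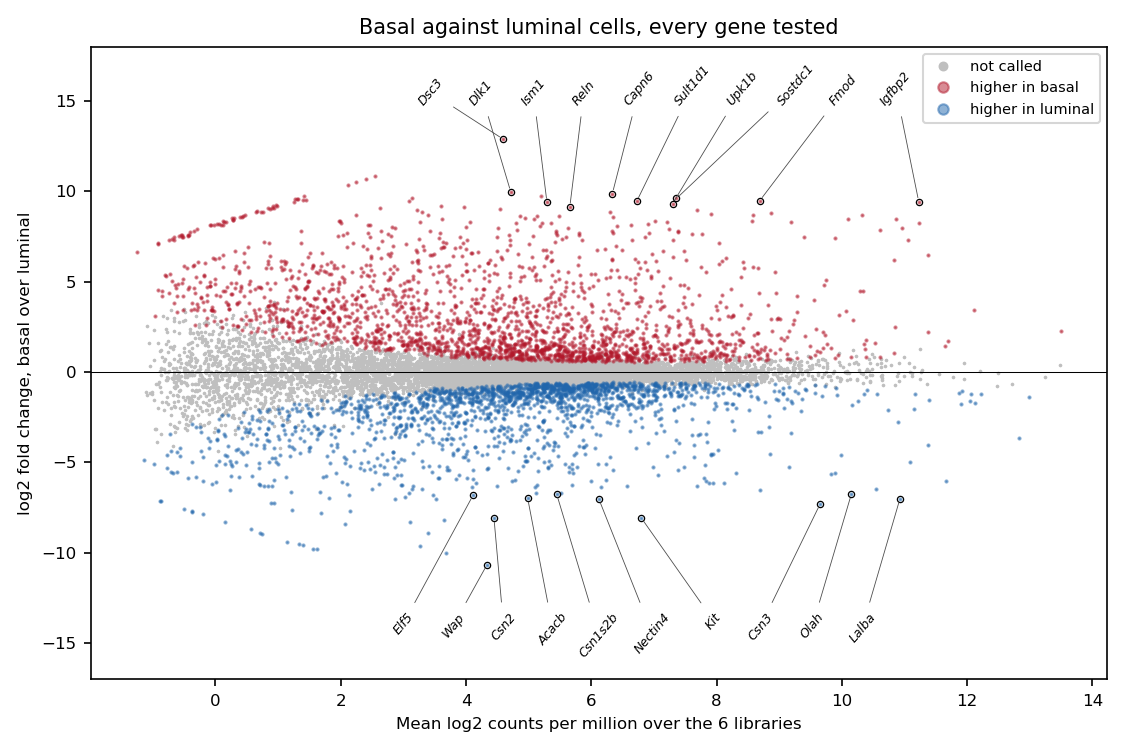
Each point is 1 of the 11395 genes tested, with its mean log2 CPM over the 6 libraries on the x axis and its log2 fold change of basal over luminal cells on the y axis (red called higher in basal, blue called higher in luminal, gray not called). The named genes are the 10 per direction with the largest changes above a mean log2 CPM of 4, leaving out LOC and RGD symbols. The height of Dsc3, which had 0 counts in luminal libraries, depends on the prior count of the fit and is no measured fold. The straight rows of points at low levels are genes at or near 0 counts in 1 population.

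The defining genes of both layers were on the labelled side in every rat, as the dot plot of lineage genes shows. *Krt5* and *Krt14*, the keratin pair of basal cells, were at 1358, 1489 and 1174 CPM in basal and 8.64, 8.06 and 6.09 CPM in luminal libraries (log2 fold change 7.47, standard error 0.28, adjusted p = 1.12e-05) and at 5137, 3964 and 3667 CPM in basal and 43.6, 22 and 19.5 CPM in luminal libraries (7.31 ± 0.34). The basal transcription factor p63, encoded by *Tp63*, was at 141, 124 and 209 CPM in basal and 0, 0.773 and 0.281 CPM in luminal libraries, so it was near 0 in each luminal library. Of 13 listed basal identity genes 11 had a row and 10 could be tested. All 10 were called higher in basal cells, and their median log2 fold change was 6.03 against -0.04 over all genes. They include *Krt15* (6.20 ± 0.30) and *Krt17* (4.48 ± 0.39), *Cdh3*, which encodes P-cadherin (5.40 ± 0.42), and the nerve growth factor receptor *Ngfr* (2.30 ± 0.27). The smallest difference was in *Cd44*, a hyaluronan receptor, at 196, 121 and 138 CPM in basal and 44.5, 68.6 and 70.2 CPM in luminal libraries. *Pdpn*, the mucin-like surface protein podoplanin, was at 294, 398 and 544 CPM in basal cells and under 1 CPM in each luminal library (8.96 ± 0.31).

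**Figure D2:**
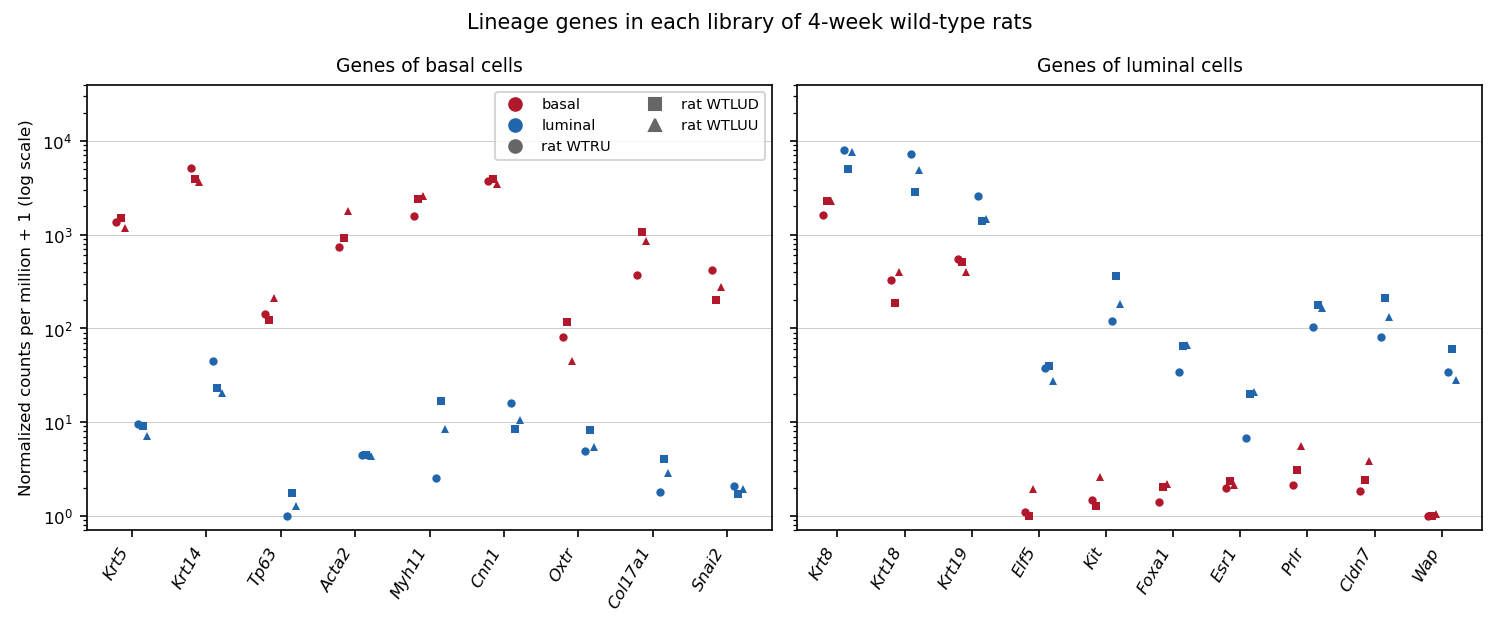
Normalized CPM plus 1 (log axis) of 9 basal and 10 luminal genes in each of the 6 libraries, red for basal and blue for luminal cells, with a marker shape for each rat. Basal and luminal libraries do not overlap in any of these genes, and the smallest gap by ratio is in Krt8.

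Contractile genes of smooth muscle, which make myoepithelial cells contract, were much higher in basal cells. Of 22 listed genes with a row, 21 were tested, 19 were called higher in basal cells and 1 higher in luminal cells, and their median log2 fold change was 4.66. Smooth muscle actin *Acta2* was at 744, 928 and 1803 CPM in basal and 3.48, 3.48 and 3.41 CPM in luminal libraries (log2 fold change 8.29, standard error 0.39, adjusted p = 1.29e-05), its basal level being highest in WTLUU. The second smooth muscle actin, *Actg2*, was at 2794, 2647 and 2199 CPM in basal and 5.87, 6.24 and 6.09 CPM in luminal libraries, and the myosin heavy chain *Myh11* at 1566, 2407 and 2592 CPM in basal and 1.52, 15.7 and 7.49 CPM in luminal libraries. In all 3 genes every basal library was above every luminal one. Calponin (*Cnn1*, 8.50 ± 0.39), transgelin (*Tagln*, 7.85 ± 0.33), the regulatory light chain *Myl9* (7.98 ± 0.33), tropomyosin *Tpm2* (8.24 ± 0.35) and the myosin light chain kinase *Mylk* (7.71 ± 0.41) had differences of like size. *Tpm1*, *Csrp1* and *Cald1*, which are also used outside muscle, had smaller ones, *Tpm1* being at 7559, 7504 and 9014 CPM in basal and 1307, 522 and 626 CPM in luminal libraries. *Oxtr*, the oxytocin receptor, was at 80.5, 115 and 44.4 CPM in basal and 3.97, 7.18 and 4.41 CPM in luminal libraries (3.89, standard error 0.28, adjusted p = 5.87e-05), so its transcript was present in basal cells of all 3 rats. Reads that fit several actin genes equally well were left out of the counts, so levels of *Acta2*, *Actg2* and *Acta1* are uncertain.

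Of the regulators of smooth muscle genes on the list, *Srf* alone could be tested. The serum response factor, which it encodes, binds the CArG boxes of smooth muscle genes. *Srf* was lower in basal cells in every rat, at 35.6, 34.6 and 37.1 CPM in basal and 61.9, 84.8 and 141 CPM in luminal libraries (-1.34, standard error 0.26, adjusted p = 0.00563). Its smooth muscle cofactor *Myocd* had 1 count in each of 2 basal libraries and none elsewhere, too few to test. Of the general members, the crosslinker *Actn1* did not pass the test (1.09, 95% confidence interval 0.19 to 1.99, adjusted p = 0.0651) but was called without WTRU (1.67). *Vcl*, vinculin, was called although its groups overlapped (0.95 ± 0.26), and was not called without the block. *Acta1*, the actin of skeletal muscle, was at 389, 298 and 260.1 CPM in basal and 1.85, 1.55 and 2.40 CPM in luminal libraries (7.33 ± 0.31). Of the other skeletal muscle genes on the list, namely *Ckm*, *Myh1*, *Myh2*, *Myh4*, *Tnnt3*, *Tnni2*, *Myl1* and *Actn3*, none exceeded 1.42 CPM in any library.

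The 250 bases before the start of each gene, from RefSeq windows of the GRCr8 build, were searched on both strands for the CArG box in its strict form (CC, then 6 bases that are A or T, then GG). It was found in 1.62% of 27457 genes with a window in 1.17% of the 8728 of them that were tested here, and in 2.11% of the 1613 called higher in basal cells. Of the contractile genes called higher in basal cells, 15 had a window and 0 held this form, and 4 (*Tagln*, *Myh11*, *Myl9* and *Lmod1*) had none. That says only that these letters are not in this window. *Acta1* was added after its values were seen, and its window (chr19:68784195-68784444, minus strand) is shown because it holds the motif, in capitals, 94 bases before the start.
Acta1: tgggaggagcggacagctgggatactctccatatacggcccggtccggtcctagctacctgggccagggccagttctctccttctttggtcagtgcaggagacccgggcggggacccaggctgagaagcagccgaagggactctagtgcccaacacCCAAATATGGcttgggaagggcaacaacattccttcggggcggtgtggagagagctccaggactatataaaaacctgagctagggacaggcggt

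Basement membrane genes and their integrin receptors were mostly higher in basal cells, with 16 of 22 tested genes called in that direction and 1 in the other, and a median of 2.06. *Col17a1*, the hemidesmosomal collagen, was at 368, 1074 and 849 CPM in basal and 0.815, 3.04 and 1.84 CPM in luminal libraries (8.69, standard error 0.29, adjusted p = 1.12e-05), and the basement membrane collagen *Col4a1* at 718, 2779 and 2141 CPM in basal and 3.31, 20.0 and 12.6 CPM in luminal libraries (7.41 ± 0.31). Among basal libraries both were lowest in WTRU. Among laminin chains, *Lama1* (7.37 ± 0.79), *Lamc1* (3.0 ± 0.42) and *Lamb3* (2.52 ± 0.20) were higher in basal cells, whereas *Lamb2* was higher in luminal cells in each rat with groups that overlapped, at 78.9, 274 and 128 CPM in basal and 120.1, 409 and 392 CPM in luminal libraries (-0.93, standard error 0.26, adjusted p = 0.0286). The laminin-binding integrin chain *Itga6* was at 279.8, 449 and 492 CPM in basal and 43.9, 154 and 127 CPM in luminal libraries (2.05 ± 0.27) and the collagen-binding chain *Itga1* at 73.2, 98.3 and 125 CPM in basal and 0.109, 0.497 and 0.601 CPM in luminal libraries (7.96 ± 0.36). *Itgb4*, the partner of *Itga6* in hemidesmosomes, did not pass (-0.31, 95% confidence interval -0.95 to 0.34, adjusted p = 0.436), its groups overlapping at 119.5, 196 and 132 CPM in basal and 86.4, 298 and 225 CPM in luminal libraries. *Itgb6* (3.78 ± 0.24) differed more than *Itgb5* (0.89 ± 0.21), and *Itgb8* did not pass (0.32, 95% confidence interval -0.25 to 0.89, adjusted p = 0.356). *Itgb4* was called higher in luminal cells without WTRU (-0.69), *Itgb5* was not called without WTLUD, and *Lamb2* was called neither without the block nor without WTLUU. *Sparc*, a matrix protein of many cell types, was higher in basal cells (6.46 ± 0.38). The summed level of the fibroblast genes was 1335 to 6723 CPM in basal and 90.8 to 399 CPM in luminal libraries, and their part in the result was not tested. It was lowest in WTRU in both populations, as *Col17a1* and *Col4a1* were.

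Basal cells also differed in transcription factors known from basal and stem-like cells, of which 12 of 15 tested were higher in basal and 0 in luminal cells, and their median was 2.83. *Snai2* (Slug), a zinc finger repressor that binds E-boxes, was at 418, 198 and 273 CPM in basal and 1.09, 0.718 and 0.922 CPM in luminal libraries (8.30, standard error 0.27, adjusted p = 1.12e-05). Its relative *Snai1* did not pass, at 30.2, 40.0 and 20.2 CPM in basal and 29.6, 17.6 and 16.4 CPM in luminal libraries (0.50, 95% confidence interval -0.17 to 1.17, adjusted p = 0.222). The other E-box repressors *Zeb1* (4.10 ± 0.92) and *Zeb2* (5.37 ± 0.92) were higher in basal cells at levels of at most 19.1 CPM. *Twist1* was at 19.9, 26.9 and 31.3 CPM in basal and 4.02, 3.04 and 4.01 CPM in luminal libraries (2.80 ± 0.31) and *Twist2* at 3.77, 7.69 and 6.41 CPM in basal libraries (5.48 ± 0.88). *Id4*, an inhibitor of basic helix-loop-helix factors, was at 639, 539.5 and 452 CPM in basal and 117, 46.5 and 42.7 CPM in luminal libraries (3.13 ± 0.28). The growth-induced factor *Egr2* was at 562, 441 and 386 CPM in basal and 74.0, 61.2 and 48.6 CPM in luminal libraries (2.92 ± 0.20), and *Nfatc1* (2.83 ± 0.26), *Tcf4* (1.48 ± 0.22) and *Tcf7l1* (1.38 ± 0.25) were higher too, while *Runx2* passed narrowly at up to 4.35 CPM (adjusted p = 0.0496) and was not called without any 1 of the rats. *Sox9* and *Sox10*, which are linked to progenitor cells of the gland, were present in both populations and did not pass, *Sox9* at 501, 771 and 682 CPM in basal and 1042, 752 and 732 CPM in luminal libraries (-0.37, 95% confidence interval -1.02 to 0.28, adjusted p = 0.351) and *Sox10* at 110.1, 240.0 and 202 CPM in basal and 141, 100.2 and 73.0 CPM in luminal libraries (0.80, 95% confidence interval -0.04 to 1.65, adjusted p = 0.127). In WTRU *Sox10* was higher in luminal cells and in the other 2 rats in basal cells, and without WTRU it was called higher in basal cells (1.36). *Egr2* and *Sox10*, and *Ngfr* above, are also known from Schwann cells, and *Zeb1*, *Zeb2*, *Twist1* and *Twist2* from fibroblasts. All 9 fibroblast genes tested were higher in basal cells, and of 9 Schwann cell and nerve genes 5 were called higher in basal and 2 in luminal cells. The part of these 2 cell types in the result was not tested.

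In luminal cells, the keratins and the junction and surface genes of the list were called in 20 of 23 cases, 1 was called in basal cells, and their median was -3.87. The luminal keratins differed unequally. *Krt18* was at 326, 187 and 396 CPM in basal and 7285, 2860 and 4904 CPM in luminal libraries (-4.02, standard error 0.31, adjusted p = 7.97e-05), while *Krt8*, its partner in the same filaments, was at 1622, 2269 and 2313 CPM in basal and 7917, 5059 and 7545 CPM in luminal libraries (-1.72, standard error 0.32, adjusted p = 0.00494) and so was abundant in both. *Krt19* was at 554, 512 and 403 CPM in basal and 2577, 1387 and 1465 CPM in luminal libraries (-1.84 ± 0.26). Tight junction claudins showed the same spread, from *Cldn7* at 0.842, 1.42 and 2.90 CPM in basal and 79.7, 210.4 and 130.3 CPM in luminal libraries (-6.37, standard error 0.39, adjusted p = 3.19e-05), *Cldn4* at 109, 48.8 and 172 CPM in basal and 7395, 5392 and 6350 CPM in luminal libraries (-6.03 ± 0.43) and *Cldn3* (-5.59 ± 0.34) to *Cldn8* (-1.73 ± 0.26), and *Cldn1*, at up to 4.80 CPM, did not pass (0.32, 95% confidence interval -2.17 to 2.81, adjusted p = 0.845). Occludin (*Ocln*) was at 5.70, 5.73 and 10.2 CPM in basal and 647, 377 and 286 CPM in luminal libraries (-5.89 ± 0.44), the apical polarity protein *Crb3* at 1.09, 1.20 and 4.18 CPM in basal and 104, 52.2 and 75.4 CPM in luminal libraries (-5.31 ± 0.47), and the apical mucin *Muc1* at 0, 0.436 and 2.01 CPM in basal and 30.3, 20.8 and 25.3 CPM in luminal libraries (-5.43 ± 0.90). *Epcam*, an epithelial adhesion molecule, differed less, at 1241, 1261 and 1480 CPM in basal and 5907, 2809 and 3450 CPM in luminal libraries (-1.54 ± 0.31). E-cadherin (*Cdh1*) did not pass, at 242, 566 and 653 CPM in basal and 322, 1048 and 984 CPM in luminal libraries (-0.63, 95% confidence interval -1.15 to -0.12, adjusted p = 0.0605), though it was called without WTRU (-0.74). The epithelial splicing regulators *Esrp1* (-1.66 ± 0.20) and *Esrp2* (-2.64 ± 0.27), the membrane proteases *St14* (-4.30 ± 0.27) and *Prss8* (-2.30 ± 0.21) and the recycling GTPase *Rab25* (-1.08 ± 0.21) were higher in luminal cells. *Prom1*, a surface protein listed as luminal, was higher in basal cells in each rat, at 9.56, 20.2 and 17.5 CPM in basal and 3.31, 7.57 and 5.69 CPM in luminal libraries (1.52, standard error 0.30, adjusted p = 0.00639).

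E-boxes are the sites that *Snai2*, *Zeb1* and *Zeb2* are known to bind, so promoters of these luminal genes are shown with their E-boxes, and whether the factors act there was not tested. The 250 bases before each start were searched for the E-box CACCTG, read on the other strand as CAGGTG. It was found in 17.0% of all 27457 genes with a RefSeq window, in 15.8% of the 8728 tested here, in 21.3% of the 1317 called higher in luminal, in 13.5% of the 1613 called higher in basal and in 15.2% of the 5798 not called. Of the keratin, junction and surface genes called higher in luminal cells 11 had a window, and 9 of them (81.8%) held the motif, namely *Krt8*, *Epcam*, *Muc1*, *Cldn3*, *Cldn7*, *Ocln*, *Tjp3*, *Rab25* and *Crb3*, but not *Krt18* or *Cldn8*. The other 9 had no window, *Cldn4* among them. Of the contractile genes called higher in basal cells, 1 of 15, *Synpo2*, held it, and of the 4 basal identity genes with a window, 2, *Krt5* and *Pdpn*, did. A match is a description of the sequence and not a bound site. The lists were chosen with earlier results of these data known, so their shares are no test against those of all genes. In the 4 windows below, printed 5′ to 3′ on the strand of the gene and ending at the base before its start, capitals mark each match. The *Cldn7* window (chr10:55188420-55188669, plus strand) holds 4 matches, the *Crb3* window (chr9:1987504-1987753, plus strand) 3, and the windows of *Ocln* (chr2:33441199-33441448, minus strand) and *Muc1* (chr2:176933500-176933749, plus strand) 2 each.
Cldn7: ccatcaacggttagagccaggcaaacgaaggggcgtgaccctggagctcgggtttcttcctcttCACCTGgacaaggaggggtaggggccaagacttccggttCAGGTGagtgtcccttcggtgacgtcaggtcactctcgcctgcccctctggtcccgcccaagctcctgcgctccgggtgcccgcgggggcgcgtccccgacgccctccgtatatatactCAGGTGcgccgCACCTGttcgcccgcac
Crb3: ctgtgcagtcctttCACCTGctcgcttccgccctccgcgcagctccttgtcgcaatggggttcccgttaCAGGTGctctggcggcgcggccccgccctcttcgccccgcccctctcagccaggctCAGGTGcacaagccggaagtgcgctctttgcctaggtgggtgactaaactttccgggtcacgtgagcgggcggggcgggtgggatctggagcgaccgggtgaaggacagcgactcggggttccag
Ocln: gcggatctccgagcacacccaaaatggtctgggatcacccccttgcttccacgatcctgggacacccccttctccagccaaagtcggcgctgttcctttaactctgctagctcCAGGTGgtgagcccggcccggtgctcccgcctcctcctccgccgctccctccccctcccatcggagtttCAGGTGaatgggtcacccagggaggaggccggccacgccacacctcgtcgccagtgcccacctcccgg
Muc1: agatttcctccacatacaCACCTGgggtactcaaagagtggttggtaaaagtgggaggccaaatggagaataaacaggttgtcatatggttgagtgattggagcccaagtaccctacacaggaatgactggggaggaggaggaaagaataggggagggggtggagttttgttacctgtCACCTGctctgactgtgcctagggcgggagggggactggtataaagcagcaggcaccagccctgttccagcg
These 4 genes had log2 fold changes between -6.37 and -5.31, whereas *Rab25*, with 2 matches, had -1.08 and *Cldn3*, with 1, -5.59, so the number of matches did not order the fold changes among the genes with a window.

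Of the transcription factors listed as luminal, 17 of 26 tested were higher in luminal and 1 higher in basal cells, and their median was -1.83. *Elf5*, a factor of alveolar and progenitor cells, was at 0.0991, 0 and 0.948 CPM in basal and 37.2, 38.5 and 26.3 CPM in luminal libraries (-6.83, standard error 0.87, adjusted p = 8.27e-04), and the related Ets factors *Ehf* (-6.05 ± 0.58) and *Elf3* (-4.02 ± 0.26) were also higher. The forkhead factor *Foxa1*, which opens chromatin for the estrogen receptor, was at 0.396, 1.04 and 1.17 CPM in basal and 33.7, 63.7 and 65.0 CPM in luminal libraries (-6.0, standard error 0.29, adjusted p = 1.42e-05). *Foxi1*, at 22.7, 17.2 and 12.0 CPM in luminal libraries, was below 1 CPM in each basal one. *Gata3*, often used as a luminal gene, was abundant in both, at 159, 202 and 216 CPM in basal and 313, 350.0 and 384 CPM in luminal libraries (-0.87, standard error 0.19, adjusted p = 0.0109) and was not called without WTLUU. *Spdef* (-3.96 ± 0.46), *Trps1* (-1.85 ± 0.23), *Xbp1* (-1.99 ± 0.22), *Ovol1* (-1.72 ± 0.38), *Grhl2* (-1.09 ± 0.21) and *Stat5a* (-1.81 ± 0.25) followed the luminal side, whereas *Stat5b* did not pass (-0.91, 95% confidence interval -1.80 to -0.01, adjusted p = 0.110) but was called without WTRU (-1.49). *Tfap2c*, an AP-2 factor, went against the name of the list, at 630.1, 842 and 709 CPM in basal and 452, 245 and 238 CPM in luminal libraries (1.28, standard error 0.30, adjusted p = 0.0137). It was not called without WTLUD or without WTLUU. *Tbx3* did not pass (0.17, 95% confidence interval -0.38 to 0.73, adjusted p = 0.622) and neither did *Sox4* (0.64, 95% confidence interval 0.15 to 1.14, adjusted p = 0.0513), which was called higher in basal cells without WTRU (0.76). *Cebpb*, a C/EBP factor, was at 3070, 3917 and 2860 CPM in basal and 2986, 841 and 972 CPM in luminal libraries. Its luminal library of WTRU was at the level of the basal ones, and it did not pass (1.29, 95% confidence interval 0.27 to 2.30, adjusted p = 0.0548) but was called higher in basal cells without WTRU (1.89).

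The receptors that read hormones were present in luminal cells before puberty. *Prlr*, the prolactin receptor, was at 1.14, 2.13 and 4.63 CPM in basal and 104, 179 and 163 CPM in luminal libraries (-5.96, standard error 0.35, adjusted p = 2.94e-05). The estrogen receptor gene *Esr1* was at 0.991, 1.36 and 1.11 CPM in basal and 5.71, 19.1 and 20.0 CPM in luminal libraries (-3.51, standard error 0.46, adjusted p = 9.28e-04) and the progesterone receptor gene *Pgr* at 2.58, 4.26 and 5.80 CPM in basal and 10.2, 47.8 and 30.9 CPM in luminal libraries (-2.64, standard error 0.36, adjusted p = 0.00122). In both, the luminal library of WTRU was below the other luminal libraries, 5.71 against 19.1 and 20.0 CPM for *Esr1*, and still above every basal library. The coactivator gene *Cited1* (-3.90 ± 0.24) was higher in luminal cells as well. Among the secreted mediators of hormone action, the *Egfr* ligand *Areg* was at 60.5, 46.4 and 66.8 CPM in basal and 422, 277 and 525 CPM in luminal libraries (-2.78 ± 0.21) and *Wnt4* at 19.9, 11.7 and 6.75 CPM in basal and 75.7, 94.5 and 96.5 CPM in luminal libraries (-2.92 ± 0.37), while *Tnfsf11*, which encodes Rankl, was listed at 0 in all 6 libraries. In all, 9 (69.2%) of 13 tested genes were called higher in luminal cells and 4 (30.8%) higher in basal cells, against 15.7% and 18.7% of all genes tested. The 4 were *Sostdc1*, a secreted Wnt and BMP inhibitor, at 469.7, 272 and 243 CPM in basal and 0.924, 0 and 0.401 CPM in luminal libraries, the chemokine gene *Cxcl12* at 986, 912 and 909.6 CPM in basal and 131, 202 and 268 CPM in luminal libraries, *Prom1*, and *Tff3*, which did not exceed 1.04 CPM and was not called without WTLUD.

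Genes of progenitor and secretory luminal cells had the lowest median of the 23 lists. Of 24 genes with a row, 20 were tested and 19 called higher in luminal cells, and their median was -5.84. *Kit*, the receptor of stem cell factor and a progenitor marker, was at 0.495, 0.273 and 1.62 CPM in basal and 118, 365 and 182 CPM in luminal libraries (-8.08, standard error 0.62, adjusted p = 7.61e-05), and the progenitor genes *Cd14* (-3.33 ± 0.30) and *Aldh1a3* (-2.73 ± 0.44) were higher too. Milk genes were detected in luminal cells of all 3 rats. *Lalba*, the alpha-lactalbumin of lactose synthase, was at 36.4, 15.7 and 41.2 CPM in basal and 3334, 4772 and 3484 CPM in luminal libraries (-7.03 ± 0.50), the kappa-casein gene *Csn3* at 4.36, 13.7 and 9.09 CPM in basal and 652, 3087 and 1065 CPM in luminal libraries (-7.31 ± 0.34), the alpha-casein gene *Csn1s1* at 20.8, 17.1 and 73.7 CPM in basal and 1877, 4923 and 2094 CPM in luminal libraries (-6.49 ± 0.70), and the beta-casein gene *Csn2* at 0, 0.546 and 0 CPM in basal and 35.0, 92.3 and 2.56 CPM in luminal libraries. *Csn2* varied most among the luminal libraries, and WTLUD was the highest of them for each of these 4 genes. *Wap*, the whey acidic protein gene, was at 33.2, 60 and 27.2 CPM in luminal libraries and had 1 count over the 3 basal libraries, a ratio of 2183 with a 95% interval of 392 to 86277 for counting error alone. Genes of milk fat were also higher in luminal cells, among them the thioesterase *Olah*, which ends fatty acid synthesis at medium chains, at 11.4, 17.2 and 39.0 CPM in basal and 2243, 3275 and 1243 CPM in luminal libraries (-6.76 ± 0.65), *Xdh* (-3.93 ± 0.39) and *Btn1a1* (-5.11 ± 0.42) of the milk fat globule, and the lipid droplet gene *Plin2* (-2.75 ± 0.44). *Ltf*, lactoferrin, was listed at 0 throughout, and *Spp1*, osteopontin, at up to 3.4 CPM, did not pass (2.67, 95% confidence interval -2.18 to 7.52, adjusted p = 0.366) but was called higher in basal cells without WTRU (5.02).

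**Figure D3:**
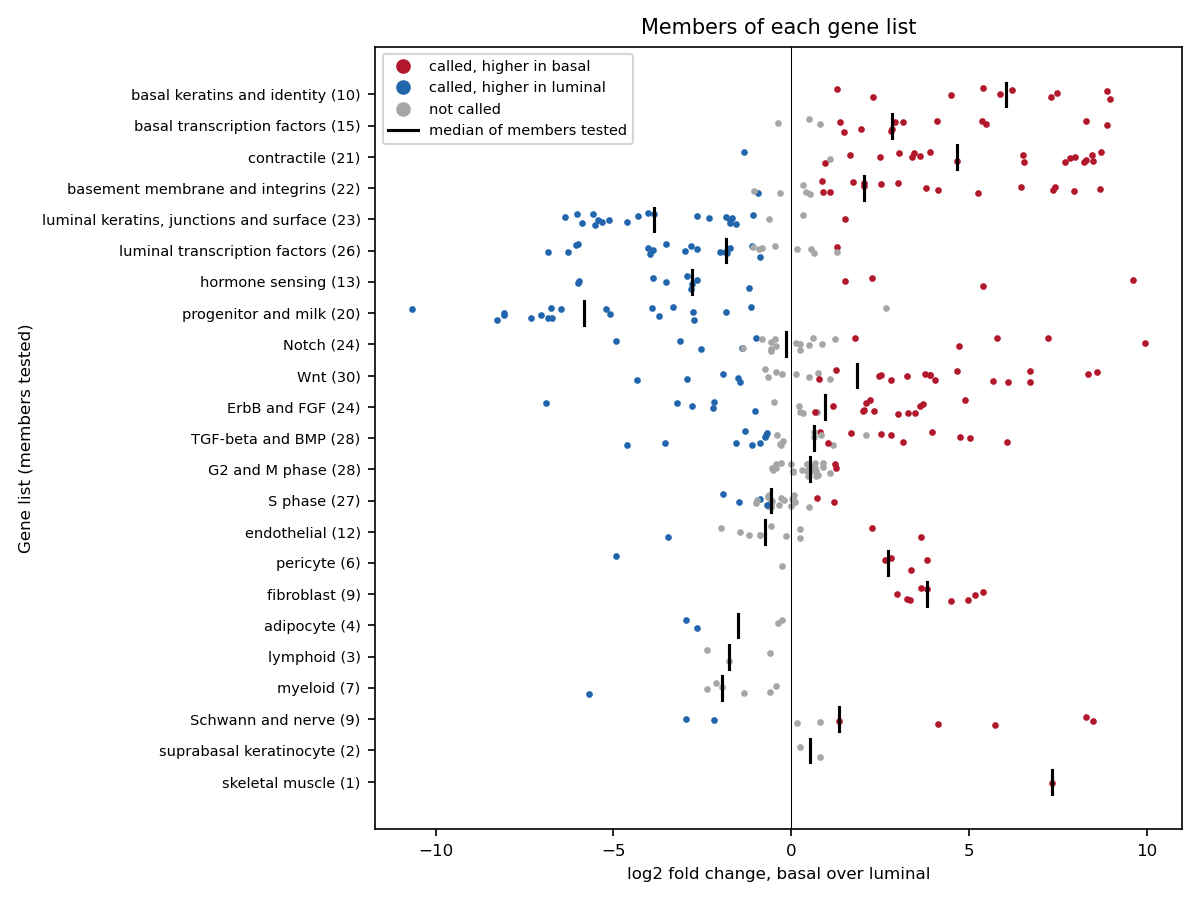
log2 fold change of basal over luminal cells (x axis) for every tested member of the 23 gene lists (y axis, number tested in brackets), red and blue where called and gray where not, with a black bar at the median. Basal identity and fibroblast lists lie to the right of 0, as does the contractile list apart from Srf. Luminal junction and milk lists lie to the left apart from Prom1, Cldn1 and Spp1, and the signalling lists lie on both sides.

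The Notch pathway, in which a ligand on a cell activates a receptor on its neighbour, had the ligand *Dll1* on the basal and 3 receptors on the luminal side. Of 24 tested genes 5 (20.8%) were higher in basal and 5 (20.8%) higher in luminal cells, close to the 18.7% and 15.7% of all genes tested. *Dll1*, a canonical ligand, was at 263, 495 and 515 CPM in basal and 5.76, 9.11 and 7.49 CPM in luminal libraries (5.80, standard error 0.25, adjusted p = 1.12e-05). *Notch3* was at 1.93, 1.25 and 1.67 CPM in basal and 19.0, 100.0 and 63.4 CPM in luminal libraries (-4.94, standard error 0.57, adjusted p = 5.24e-04), *Notch4* at 3.77, 3.55 and 1.95 CPM in basal and 16.7, 43.2 and 25.2 CPM in luminal libraries (-3.14 ± 0.40) and *Notch1* at 29.1, 22.8 and 31.2 CPM in basal and 45.0, 108 and 75.9 CPM in luminal libraries (-1.38 ± 0.32), and the target genes *Heyl* (-2.53 ± 0.51) and *Hes1* (-0.98 ± 0.23) were higher in luminal cells too, *Hes1* not without WTLUD, without WTLUU or without the block. *Notch3* is also a pericyte gene and *Notch4* an endothelial one. Apart from *Notch3*, the 4 pericyte genes called were higher in basal cells, and without WTLUD 2 were. Of 12 endothelial genes, 2 were called higher in basal cells, among them *Eng* (3.64), and 1, *Flt1*, higher in luminal cells (-3.48). *Pecam1* did not pass (-1.98, adjusted p = 0.283), at 1.73, 1.58 and 0.0558 CPM in basal and 1.03, 5.03 and 8.18 CPM in luminal libraries. The part of vessel cells in the Notch values was not tested. *Notch2* did not pass (0.24, 95% confidence interval -0.55 to 1.02, adjusted p = 0.633), nor did the ligand *Jag1*, which was higher in basal cells in all 3 rats at 27.2, 27.9 and 45.7 CPM in basal and 4.62, 23.1 and 22.8 CPM in luminal libraries (1.24, 95% confidence interval 0.24 to 2.24, adjusted p = 0.0587). *Jag1* was called without WTLUD (1.73) and without WTLUU (1.41). The targets *Hey1* (-0.42, 95% confidence interval -1.14 to 0.29, adjusted p = 0.334) and *Nrarp* (-0.57, 95% confidence interval -1.17 to 0.02, adjusted p = 0.125) did not pass. The noncanonical, inhibitory ligands were the most basal members, *Dlk1* at 20.0, 66.6 and 70.5 CPM in basal libraries with 3 counts over the luminal ones, and *Dlk2* at 103, 98.8 and 52.3 CPM in basal and 0.978, 0.166 and 0.521 CPM in luminal libraries (7.23 ± 0.47). The modifier *Lfng*, a glycosyltransferase acting on Notch (1.80 ± 0.34), and *Numbl* (4.72 ± 0.39), a relative of the Notch antagonist *Numb*, were also higher in basal cells.

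Wnt genes divided by ligand. Of 30 tested, 17 (56.7%) were higher in basal and 5 (16.7%) in luminal cells, the latter share near the 15.7% of all genes tested. A further 9 genes with a row were too low to test. Luminal cells had more *Wnt4*, *Wnt5b* at 19.0, 35.1 and 9.43 CPM in basal and 105, 72.7 and 46.1 CPM in luminal libraries (-1.93 ± 0.31), *Wnt7b* at 0.198, 1.04 and 0.0558 CPM in basal and 4.40, 9.22 and 6.37 CPM in luminal libraries (-4.35 ± 0.74), *Wnt9a* (-1.44 ± 0.47) and the receptor *Fzd3* (-1.49 ± 0.26). *Wnt9a* was not called without the block or without any 1 of the rats. Basal cells had more *Wnt6* at 64.7, 40.6 and 28.1 CPM in basal and 0.435, 0.387 and 0.361 CPM in luminal libraries (6.72, standard error 0.35, adjusted p = 1.65e-05), *Wnt10a* at 13.2, 17.5 and 9.43 CPM in basal and 0.870, 0 and 0.120 CPM in luminal libraries (5.68 ± 0.89), *Wnt5a* (3.26 ± 0.49) and *Wnt11* (2.46 ± 0.48). The receptors *Fzd1* (3.77 ± 0.22) and *Fzd2* (3.90 ± 0.32) and the coreceptor *Ror2* (4.04 ± 0.51) were basal, as was *Lgr5*, a receptor of R-spondins and a stem cell marker, at 13.1, 3.0 and 4.57 CPM in basal and 0.109, 0.110 and 0.0401 CPM in luminal libraries (6.10 ± 0.72). *Procr*, a surface receptor known from basal stem cells, was at 145, 213 and 243 CPM in basal and 12.8, 13.2 and 13.7 CPM in luminal libraries (3.89 ± 0.23). Secreted proteins of families that include Wnt inhibitors were among the largest differences of the list. *Dkk3* was at 671, 858 and 738 CPM in basal and 4.67, 1.27 and 1.76 CPM in luminal libraries (8.36 ± 0.52). *Sfrp2* was at 194, 166 and 127 CPM in basal and 0.217, 0.663 and 0.361 CPM in luminal libraries (8.60 ± 0.38). *Wif1* (6.73 ± 0.42) and *Sfrp1* (2.81 ± 0.23) were higher in basal cells too. The common target gene *Axin2* did not pass, at 2.87, 6.60 and 8.70 CPM in basal and 1.79, 2.76 and 3.45 CPM in luminal libraries (1.10, 95% confidence interval 0.09 to 2.10, adjusted p = 0.0882), and the target gene *Lef1*, higher in basal cells, did not exceed 1.49 CPM and was not called without WTLUD.

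Growth factor receptors split between the layers, with 13 (54.2%) of 24 tested ErbB and FGF genes higher in basal and 6 (25.0%) higher in luminal cells. Among all genes tested the shares were 18.7% and 15.7%. *Nrg1*, a ligand of *Erbb3* and *Erbb4*, was at 396, 608 and 859 CPM in basal and 71.0, 35.0 and 39.4 CPM in luminal libraries (3.70, standard error 0.42, adjusted p = 4.65e-04), and *Nrg2* at 99.7, 86.0 and 101 CPM in basal and 8.53, 6.85 and 7.89 CPM in luminal libraries (3.62 ± 0.21), so both were basal. Their receptors were luminal, *Erbb3* at 12.4, 28.6 and 27.9 CPM in basal and 30.4, 191 and 152 CPM in luminal libraries (-2.18, standard error 0.31, adjusted p = 0.00138) and *Erbb4* at 0.0991, 0.0546 and 0.223 CPM in basal and 8.86, 21.0 and 17.9 CPM in luminal libraries (-6.89 ± 0.56), with *Erbb2*, the coreceptor, at 2.03, 5.18 and 5.08 CPM in basal and 4.57, 34.0 and 29.9 CPM in luminal libraries (-2.19 ± 0.39). The luminal library of WTRU had the lowest luminal level of all 3 receptors, and for *Erbb2* lay below the 2 higher basal libraries. *Egfr* was basal, at 57.8, 46.3 and 62.2 CPM in basal and 10.5, 14.9 and 13.3 CPM in luminal libraries (2.11 ± 0.25). Its ligands lay on both sides, *Areg* and *Hbegf* (-1.02 ± 0.25) being luminal and *Epgn* (3.29 ± 0.37) and *Tgfa* (0.66 ± 0.20) basal. The groups overlapped in *Tgfa*, which was not called without the block or without any 1 of the rats. *Fgfr2*, which mediates ductal growth, was at 265, 458 and 401 CPM in basal and 35.8, 124 and 158 CPM in luminal libraries (2.04 ± 0.31) and *Fgfr1* at 51.4, 175 and 241 CPM in basal and 27, 36.4 and 33.2 CPM in luminal libraries (2.03 ± 0.37), both basal, whereas *Fgfr3* was luminal at 2.23, 12.4 and 9.93 CPM in basal and 40.2, 84.0 and 73.2 CPM in luminal libraries (-3.22 ± 0.33). The feedback inhibitors *Spry1* (2.32 ± 0.22), *Spry2* (1.18 ± 0.22) and *Spry4* (2.21 ± 0.35) were higher in basal cells.

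**Figure D4:**
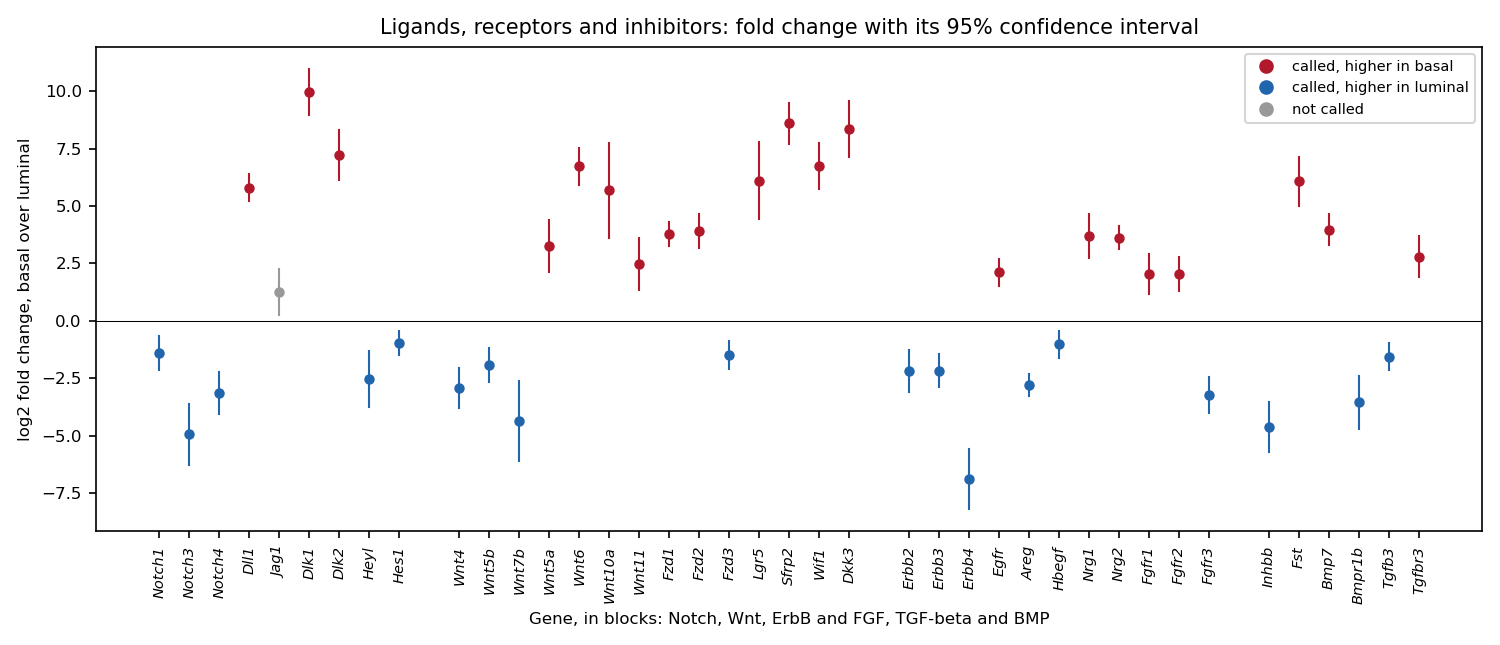
log2 fold change of basal over luminal cells (y axis) with its 95% confidence interval for ligands, receptors, inhibitors and targets of 4 pathways (x axis), red called higher in basal, blue called higher in luminal and gray not called. Dll1, Nrg1 and Nrg2 lie above 0, and Notch3, Notch4, Erbb3 and Erbb4 below, and the value of Dlk1 rests on 3 luminal counts.

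In the TGF-beta family 10 (35.7%) of 28 tested genes were higher in basal and 9 (32.1%) higher in luminal cells, against 18.7% and 15.7% of all genes tested. The luminal count was 4 without the block, 4 without WTLUD and 5 without WTLUU. *Inhbb*, an activin subunit, was at 1.49, 1.53 and 5.13 CPM in basal and 57.8, 65.3 and 52.2 CPM in luminal libraries (-4.63, standard error 0.47, adjusted p = 2.65e-04), and follistatin (*Fst*), which binds and blocks activin, at 702, 654 and 657 CPM in basal and 22.6, 5.08 and 8.34 CPM in luminal libraries (6.07, standard error 0.45, adjusted p = 7.09e-05). *Bmp7* was basal at 152, 183 and 162 CPM in basal and 6.03, 13.0 and 14.5 CPM in luminal libraries (3.97 ± 0.28), and the receptor *Bmpr1b* luminal at 1.29, 3.11 and 2.90 CPM in basal and 42.5, 19.6 and 25.4 CPM in luminal libraries (-3.55 ± 0.50). The BMP antagonist *Nog* was higher in basal cells at up to 9.54 CPM (1.68 ± 0.41), but was called neither without WTLUD nor without WTLUU. *Grem1*, a secreted antagonist of the same family, was basal as well (5.04 ± 1.02). *Tgfb3* (-1.56 ± 0.25) and *Tgfb2* (-1.31 ± 0.30) were higher in luminal cells, the coreceptor *Tgfbr3* in basal cells (2.80 ± 0.38), and *Tgfb1* did not pass (-0.40, 95% confidence interval -1.11 to 0.31, adjusted p = 0.355). The BMP-responsive genes *Id1* to *Id4* were not alike, since *Id3* at 527, 212 and 237 CPM in basal and 107, 35.2 and 36.7 CPM in luminal libraries (2.53 ± 0.20) and *Id4* were basal and *Id2* (-1.11 ± 0.25) and *Id1* (-0.74 ± 0.21) luminal. The groups overlapped in *Id1* and *Id2*, in which the basal library of WTRU was above the lowest luminal one, and WTRU was the highest of its population for all 4. Without the block or without WTLUD neither *Id1* nor *Id2* was called.

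Of 28 mitotic genes tested 2 were called (7.14%, against 34.4% of all genes tested). These, *Ccna2* (1.26 ± 0.35) and *Hmmr* (1.22 ± 0.31), were called higher in basal cells but not without WTLUD or without WTLUU. The proliferation marker *Mki67* was at 10.8, 21.4 and 18.2 CPM in basal and 4.13, 12.6 and 16.5 CPM in luminal libraries (0.75, 95% confidence interval -0.01 to 1.51, adjusted p = 0.117). Of 27 DNA replication genes 7 (25.9%) were called, nearer to the share of all genes. Of these, 2 (*Pcna* and *Rrm2*) were higher in basal and 5 (*Ung*, *Gins2*, *Mcm5*, *Prim1* and *Mcm6*) higher in luminal cells. *Ung*, a uracil-DNA glycosylase, had the largest difference, at 21.4, 36.9 and 24.8 CPM in basal and 114, 106 and 87.2 CPM in luminal libraries (-1.91 ± 0.24). Without WTLUU the counts were 1 higher in basal and 1 in luminal cells, and without WTLUD 0 and 2.

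The genes with the largest differences among those above a mean log2 CPM of 4 include, on the basal side, *Dsc3*, a desmosomal cadherin, at 38.1, 53.9 and 52.3 CPM in basal libraries and 0 in each luminal library. Against a floor of 3 counts over the luminal group it was at least 978-fold higher in basal cells. *Igfbp2*, an insulin-like growth factor binding protein, reached 4462, 6082 and 3837 CPM in basal against 6.25, 5.74 and 8.66 CPM in luminal libraries (9.43, standard error 0.44, adjusted p = 1.14e-05). *Fmod*, the matrix proteoglycan fibromodulin, was at 682, 913 and 876 CPM in basal and 0.326, 2.37 and 1.20 CPM in luminal libraries (9.48 ± 0.50) and *Upk1b*, a uroplakin, at 321, 366 and 255 CPM in basal and 1.14, 0.221 and 0.240 CPM in luminal libraries (9.32 ± 0.51). The others were *Dlk1*, *Sostdc1*, *Capn6*, a calpain without protease activity (9.87 ± 0.44), *Sult1d1*, a sulfotransferase (9.45 ± 0.35), *Ism1* (9.39 ± 0.44) and *Reln*, the secreted glycoprotein reelin (9.14 ± 0.43). On the luminal side, beside *Wap*, *Csn2*, *Kit*, *Csn3*, *Lalba*, *Elf5*, *Olah* and *Csn1s2b*, they were *Nectin4*, a cell adhesion molecule, at 0, 0.982 and 3.29 CPM in basal and 126, 138 and 149 CPM in luminal libraries (-7.02 ± 0.81), and *Acacb*, an acetyl-CoA carboxylase, at 0.644, 0.491 and 0.112 CPM in basal and 23.6, 118 and 46.3 CPM in luminal libraries (-6.99 ± 0.61).

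Genes of other cell types were not evenly spread between the populations. All 9 fibroblast genes that could be tested, of 11 with a row, were higher in basal cells. *Col1a1* was at 176, 1465 and 1815 CPM in basal and 36.6, 70.5 and 172 CPM in luminal libraries (3.35 ± 0.42), *Dcn* at 94.9, 235 and 254 CPM in basal and 17.7, 5.80 and 18.8 CPM in luminal libraries (3.81 ± 0.53), and the defining receptor *Pdgfra* at 2.97, 16.1 and 5.47 CPM in basal and 0.815, 0.718 and 0.521 CPM in luminal libraries (3.25 ± 0.63, not called without WTLUD), while *Col1a2* was listed at 0 in all libraries, beside *Col1a1* at 1465 and 1815 CPM in 2 of them. Of 9 Schwann cell and nerve genes 5 (55.6%) were called higher in basal cells and 2 (22.2%) in luminal cells, against 18.7% and 15.7% of all genes tested. On the basal side, *Cdh19* was at 83.1, 56.0 and 64.0 CPM in basal and 0.109, 0.331 and 0.120 CPM in luminal libraries. *Erbb3* (-2.18 ± 0.31) was 1 of the 2 on the luminal side. The summed level of the 9 genes was 791 to 1724 CPM in basal libraries, highest in WTRU, and 489 to 563 CPM in luminal ones. *Pdpn*, *Thy1* (5.87 ± 0.46), *Fmod* and *Cxcl12*, which fibroblasts also express, were higher in basal cells like the fibroblast genes, and the part of fibroblasts or Schwann cells in these differences was not tested.

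Most genes of blood and vessel cells were low in all libraries. The summed level of 10 lymphoid genes was at most 15.3 CPM in any library. That of 12 myeloid genes was 8.21, 49.5 and 31.8 CPM in luminal libraries and lower in basal WTLUD and WTLUU. *Lyz2* was at 0.0495, 0.546 and 0.223 CPM in basal and 1.85, 31.7 and 11.7 CPM in luminal libraries. It made up most of the myeloid sum in luminal WTLUD only. Of 12 endothelial genes 2 (16.7%) were called higher in basal cells, 1 (8.33%) higher in luminal cells and 9 not. These shares are no larger than the 18.7% and 15.7% of all genes tested. The defining genes *Pecam1* and *Cdh5* did not exceed 8.18 CPM, whereas *Eng*, a TGF-beta coreceptor, was higher in basal cells at 191, 272 and 214 CPM in basal and 12.2, 22.6 and 20.5 CPM in luminal libraries (3.64 ± 0.22) and *Flt1*, a VEGF receptor, higher in luminal cells at 4.51, 3.55 and 4.96 CPM in basal and 44.1, 58.2 and 43.8 CPM in luminal libraries (-3.48 ± 0.29). Of 6 pericyte genes tested 4 were called higher in basal cells, among them *Pdgfrb* at 15.2, 21.7 and 8.09 CPM in basal and 0.489, 2.15 and 0.761 CPM in luminal libraries (3.82 ± 0.47), and 1, *Notch3*, in luminal cells, while without WTLUD 2 were called higher in basal cells. The summed level of 10 pericyte genes was 30.1 to 40.6 CPM in basal and 22.1 to 107 CPM in luminal libraries, the latter mostly from *Notch3*. Adipocyte genes summed to 12.7 to 15.7 CPM in basal and 42.9 to 58.0 CPM in luminal libraries, with *Lipe* (-2.95 ± 0.33) and *Cidec* (-2.64 ± 0.51) called higher in luminal cells and *Adipoq* at no more than 0.112 CPM. Neither of the 2 suprabasal keratinocyte genes tested was called, and their list summed to at most 32.7 CPM.

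Whether the difference between the layers itself changed with age was tested as an interaction between population and age, with the rats of 6 weeks in the fit. Their libraries differed in quality measures, with 57.9% and 65.2% of column totals not on genes in basal and 69.4% and 70.6% in luminal cells, against 49.7% to 55.6% and 57.4% to 59.4% at 4 weeks. They also held fewer counts (9890608 to 16390460) and fewer genes with a count (10956 to 12324, against 12355 to 12966). The part of these measures in the age changes was not tested. Of 12122 genes, 8 (0.066%) were called, while 2348 had an unadjusted p under 0.05. No gene was called without any 1 of the 3 rats of 4 weeks, and 1637 were without WTLU, 178 without WTRM and 1300 by DESeq2, so the count depends on single rats and on the tool. The basal excess of *Acta1*, which was 382, 294 and 256 CPM in basal and 1.82, 1.52 and 2.38 CPM in luminal libraries of 4 weeks on the scale of this fit, was smaller at 6 weeks, with 10.5 and 22.4 CPM in the basal and 1.39 and 4.27 CPM in the luminal libraries of WTRM and WTLU. The log2 difference between ages of the basal over luminal fold was 4.72 (standard error 0.45, edgeR adjusted p = 0.0461). *Mal*, a membrane protein of myelin and apical transport, was higher in basal cells of each rat at 4 weeks and in luminal cells of both rats at 6 weeks (7.44 ± 0.69). *Ech1*, an enzyme of fatty acid oxidation, was slightly higher in basal cells of each rat at 4 weeks and higher in luminal cells of both rats at 6 weeks (2.57 ± 0.29). The 4 genes that follow had a higher basal over luminal ratio at 6 weeks. The folate enzyme *Mthfd1* was basal at both ages (-3.02 ± 0.32), and its mitochondrial relative *Mthfd1l* (-3.55 ± 0.39), the acyltransferase *Agpat2* (-3.20 ± 0.33) and the glutathione transferase *Gstm1* (-3.44 ± 0.37) were luminal in each rat at 4 weeks and basal in both at 6 weeks. *Col1a1* was lower in basal libraries at 6 weeks (92.9 and 21.1 CPM) than at 4 weeks (172 to 1786 CPM) on this scale, and the part of such cells in the age differences was not tested.

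**Figure D5:**
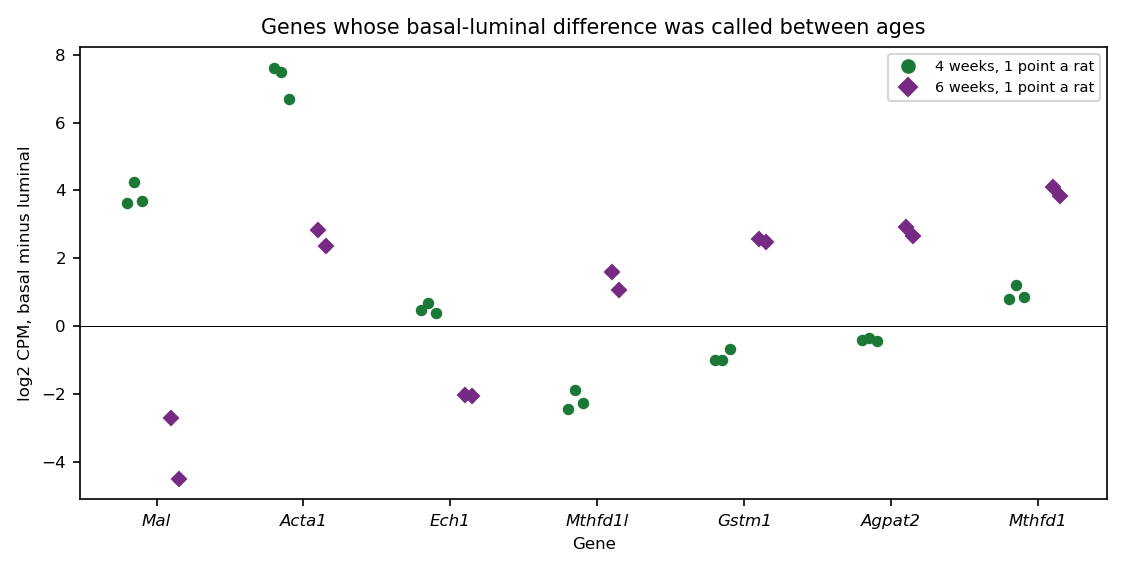
Basal minus luminal difference in log2 CPM (y axis) of 7 of the 8 genes called for a change with age (x axis), 1 point for each rat, green circles for 3 rats of 4 weeks and purple diamonds for 2 rats of 6 weeks. In each gene the 2 ages do not overlap, which the choice of these genes fixes.

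The same interaction with genotype, using the 2 *Cdkn1b*-/- rats of 4 weeks, called 1 gene of 12075 (0.00828%), with 162 at an unadjusted p under 0.05 and 1 called by DESeq2. This was the myeloid gene *Lyz2*, whose luminal excess in each wild-type rat was not seen in KORD (1.69 CPM in basal and 1.66 CPM in luminal cells) and was small in KORM (13.3 and 18.5 CPM), a difference of -5.39 ± 0.65 on the log2 scale (edgeR adjusted p = 0.0489). It was not called without KORD, KORM, WTLUD or WTRU, nor without the block.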

How the data were processed

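Per the labels and the study's methods, the authors made SMARTer v4 low-input libraries from polyA RNA of sorted cells, sequenced them as single-end reads on a NextSeq500, aligned them to rn6 with STAR 2.5.1b and counted them on refGene genes with htseq-count. The deposited values are raw counts, 1 column a library, and the strand setting is not given in the sources used here. Reads aligned to several places were not counted, which lowers near-identical genes. Rows that name no gene were left out (49.7% to 59.4% of column totals). Genes were filtered with filterByExpr by population, normalized by TMM and tested with edgeR 4.0.16 (R 4.3.3) in a quasi-likelihood fit with the rat, which the titles give for both populations, as a block; DESeq2 1.42.0 was an alternative. Deviations of libraries of the same rat from their population means correlated at 0.30, 0.20 and 0.14, and those of different rats at -0.24 to 0.12, highest between WTLUD and WTLUU. No 2 libraries were duplicates. With the rat as a block, differences in level between rats are taken out. The p-values over 3 rats therefore set the basal-luminal difference of a gene against its variation between these animals. The fit estimates that variation partly from the other genes. Named genes are the 10 largest changes per direction above a mean log2 CPM of 4 that moved alike in 3 rats, without LOC and RGD symbols, up to 4 per direction and list above a log2 CPM of 2, the 3 highest genes of other cell types, up to 5 per direction of an interaction, and members of the factor, hormone, ligand and receptor lists. Others were named after their values were seen. The libraries and the 23 lists were chosen with earlier results of these data known. Promoter windows came from RefSeq (GRCr8), matched by symbol (8728 of 11395 genes tested). The tests were tried on simulated data. Some genes are not reported here.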

Additional observations from a re-analysis of the deposited data

Results flagged for a closer look

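The basal over luminal fold differed between ages in 8 genes and between genotypes in 1, by an interaction term in edgeR's quasi-likelihood fit at an adjusted p under 0.05. As log2 differences (4 weeks minus 6 weeks) these were, for 7 of the 8 genes, 7.44 for *Mal*, 4.72 for *Acta1*, 2.57 for *Ech1*, -3.55 for *Mthfd1l*, -3.44 for *Gstm1*, -3.20 for *Agpat2* and -3.02 for *Mthfd1*. Between genotypes (wild type minus *Cdkn1b*-/-) it was -5.39 for *Lyz2*, a myeloid gene with no more than 31.7 CPM in any wild-type library of 4 weeks.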

How the results depend on the processing

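The count of genes called between the populations was 3921 and ranged from 2889 (without WTLUD) to 4444 (DESeq2) under size factors of DESeq2, no filter, at least 10 counts in every library, the fit without the block, all 11 libraries of 4 weeks and each rat left out, and 2787 to 3920 of the 3921 genes remained called in the same direction. The age interaction (8 genes) gave 126 without the block, 2 with size factors of DESeq2, 77 without a filter, 406 with at least 10 counts in every library, 1300 by DESeq2 and 0 to 1637 with 1 rat left out. The genotype interaction (1 gene) gave 0 without the block, 0 with at least 10 counts and 0 to 1 with 1 rat left out. The cause of these changes was not tested. Among 4 genes that were not called the sign turned when 1 rat was left out, with log2 fold changes of -2.55 to 1.00 for *Cdh5*, -0.93 to 1.54 for *Cldn1*, -0.08 to 0.66 for *Notch2* and -0.07 to 0.37 for *Tbx3*. Of 212 genes named, 38 changed their call or their sign in an alternative, these 4 among them by sign only. Gene-list counts without the block, by DESeq2 and without each rat were chosen after seeing the data. A gene at 0 in a population gives only a lower bound for its fold.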
